A study of Mus musculus with 6 samples.

Results

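Long intergenic non-coding RNAs (lincRNAs) are transcripts of separate genes that lie between protein coding genes and hold no long open reading frame. Most are capped, spliced and polyadenylated by RNA polymerase II as mRNAs are, yet they are kept at lower levels, and many are removed in the nucleus by the exosome. A few have a described function, as a binding platform for proteins or microRNAs or through the act of transcription at a neighbouring gene, and in macrophages some respond to inflammatory signals. The lincRNA genes described here are the entries of the deposited table with the biotype lincRNA and a mean level of at least 1 FPKM (fragments per kilobase of gene, scaled to the library total) over the 6 libraries, without names beginning with Snhg or Mir and without Malat1, Neat1 and Gas5. They are 212 of the 5559 lincRNA entries and of the 54429 genes of the table. They were selected on the mean FPKM over both groups, so their level is given as a description. The biotype is that of the deposited table. In the GENCODE M21 annotation 207 of the 212 had the same coordinates, and 203 of those had the biotype lincRNA.

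RNA came from RAW264.7 cells, an established line of mouse macrophages that came from a tumour raised with a virus. The Gel/S group, the control, was kept static with GelMA, a gelatin hydrogel with methacryloyl groups. The C/D group was kept with GelMA/PEDOT:PSS+PLLA/PDA, a gel with a conducting polymer blend, and received ultrasound at 48 kHz for 5 min. The columns of the table do not spell out the group names, and those marked US were read as the ultrasound group, on which every direction below depends. Culture lasted 3 d, with 3 libraries a group, and every mean below is given ± SD over n = 3. Material and ultrasound changed together, so their parts in a difference cannot be told apart. All cells are of 1 line, and the labels do not say that replicates were separate cultures, so each p-value reflects no more than the spread among these libraries, part of which may be technical.

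The libraries held 12818831 to 16525699 counts. Of 10 macrophage markers, 9 had a mean of at least 1 FPKM, and their summed level was 13540 to 14140 FPKM in Gel/S and 11020 to 11190 FPKM in C/D. None of the 9 fibroblast or osteoblast, 6 neutrophil, 7 T or B cell and 7 epithelial or endothelial cell markers reached a mean of 1 FPKM, and Col1a2, Col3a1, S100a9, Ms4a1 and Epcam were listed at 0. Of 7 osteoclast markers 4 reached it: Acp5, Ocstamp, Dcstamp and Nfatc1. The sum of the 7 was 55.8 to 57.5 FPKM in Gel/S and 45.8 to 51.3 in C/D. Of 5 dendritic cell markers only Siglech reached a mean of 1 FPKM. The sum of the 5 was 16.4 to 17.7 FPKM in Gel/S and 7.97 to 11.4 in C/D. Mitochondrial genes took 5.59%, 9.01% and 7.41% of the counts in Gel/S 1 to 3 and 9.17%, 10.3% and 9.99% in C/D 1 to 3. The part of these differences in the results below was not tested.

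lincRNA genes were higher in C/D more often than lower. With the quasi-likelihood test of edgeR, adjusted by Benjamini-Hochberg over 11708 tested genes to a threshold of 0.05, 61 of the 212 rose and 4 fell, or 28.8% and 1.9%, where 13.1% and 13.9% of all tested genes did. Their median log2 fold change of C/D over Gel/S was 0.39, against 0.01 over all tested genes, and 171 of the 212 values were above 0. The FPKM values of C/D lay above all those of Gel/S for 84 of them and below for 9, where 19.1% and 27.1% of all tested genes did so. Of the risen genes 18 rose at least 2-fold, and of the fallen genes 0. The direction of the median held under each scaling tried, although with limma on log2(TPM + 1), a scaling to a common total, 32 rose and 8 fell, and the median of all genes moved to −0.12. With 1 library left out, the risen count was 31 (C/D 1 left out), 33 (C/D 2), 38 (C/D 3), 45 (Gel/S 3), 47 (Gel/S 1) or 71 (Gel/S 2), and the fallen count was 1 to 3.

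The shift was seen library by library. Relative to the mean of Gel/S, the median lincRNA gene stood at −0.14, 0.12 and 0.05 on the log2 scale in Gel/S 1 to 3 and at 0.44, 0.41 and 0.38 in C/D 1 to 3. All C/D libraries thus lay above all Gel/S libraries, while the median tested coding gene stayed between −0.02 and 0.01 in each of the 6. The scaling between libraries places most tested genes near 0, and 9953 of the 11708 are coding. The coding median is therefore held near 0 by the method, and it does not show that coding RNA stayed constant. In bulk RNA of cells, more cells that express a gene and more RNA per cell cannot be told apart.

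Some entries passed the level filter mainly through 1 group. In 26 of the 212 the Gel/S mean was under 1 FPKM, and 10 of these are among the risen genes. In 4 the C/D mean was under 1. Among the 182 genes at 1 FPKM or more in both groups, 51 rose and 4 fell. The 3 genes just inside the filter were Gm45353 (mean of 1.01 FPKM), AI480526 (1.01) and Gm40787 (1.02), and the 3 lincRNA genes just outside it were Gm26510 (0.984), Gm49201 (0.974) and Gm13832 (0.971).

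Sites within the sequence are shown for 2 lincRNAs with a described function. 2900097C17Rik is the mouse gene of Norad, an abundant cytoplasmic RNA that binds Pumilio proteins, which bind the 3′ ends of mRNAs and lower their stability. Its only exon (chr2:156388065-156392979, minus strand, GRCm38) holds the Pumilio motif TGTANATA 11 times in 4915 bases on the sense strand. A stretch of it from base 1512 to base 1631 of the GENCODE M21 transcript is shown for the spacing of 2 motifs, in capitals.
2900097C17Rik: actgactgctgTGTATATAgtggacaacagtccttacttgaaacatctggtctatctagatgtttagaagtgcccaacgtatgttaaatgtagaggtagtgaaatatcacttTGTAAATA
1700020I14Rik, also named Oip5os1 or Cyrano, carries a site with almost full complementarity to the microRNA miR-7a-5p, whose decay it is known to direct. The site lies at bases 2935 to 2959 of its 8300-base transcript, and 21 of the 23 bases of the microRNA can pair with it, with a bulge in between. Capitals mark the seed of the microRNA (bases 2 to 8, RefSeq) and the seed match in the lincRNA.
1700020I14Rik: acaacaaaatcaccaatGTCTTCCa
miR-7a-5p: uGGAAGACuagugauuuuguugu

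These RNAs changed little or moderately. 2900097C17Rik stood at 38.5, 30.2 and 33.2 FPKM in Gel/S 1 to 3 and at 38.4, 37.8 and 38.0 FPKM in C/D 1 to 3, so the groups overlapped through Gel/S 1. Its log2 fold change of 0.21 (SE 0.0946) did not pass (edgeR adjusted p = 0.115). It had the most counts of the 212 genes, 7.6% of their sum. Gm7292 is a shorter lincRNA gene with 9 copies of the motif in 2527 bases. Its transcript aligned to that of 2900097C17Rik over its full length at 99.172% identity, with 9 mismatches, so reads of either gene could be given to the other. Gm7292 had 5.56 ± 0.816 FPKM in Gel/S and 7.49 ± 0.626 FPKM in C/D, a log2 fold change of 0.47 (edgeR adjusted p = 0.0209) that did not pass with Gel/S 3, C/D 1 or else C/D 3 left out (up to 0.0884). No other lincRNA gene of the 211 with a transcript held more than 3 copies of the motif. 1700020I14Rik rose, from 10.5, 11.2 and 11.1 FPKM to 12.7, 15.3 and 13.7 FPKM, with no overlap (log2 fold change 0.39 with an SE of 0.0902, edgeR adjusted p = 0.00878). Its edgeR adjusted p was 0.0568 without C/D 2, and the limma adjusted p on log2(TPM + 1) was 0.11. Oip5, the coding gene it faces tail to tail, had 5.50 ± 0.627 and 4.40 ± 1.08 FPKM and was not called (log2 fold change −0.27).

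Of the other 5 RNAs on the list of described roles, Epb41l4aos and Lockd rose, and Ftx, Pvt1 and Ptgs2os2 did not pass. Bvht and Dubr, not on that list, are described among the most abundant genes. Lockd is made from the same strand as Cdkn1b, the gene of the cell cycle inhibitor p27, starting 3579 bases beyond it. It stood at 0.822, 0.964 and 1.29 FPKM in Gel/S and at 1.55, 1.45 and 1.42 FPKM in C/D, with no overlap (log2 fold change 0.57, edgeR adjusted p = 0.0424). Cdkn1b rose too, from 36.6 ± 2.74 to 48.7 ± 3.93 FPKM (0.45, edgeR adjusted p = 0.00617). The call of Lockd was lost without any 1 of 5 libraries, all but Gel/S 3 (edgeR adjusted p up to 0.119), and in all limma fits (limma adjusted p = 0.123 to 0.307). Pvt1, which lies downstream of the growth regulator Myc, had 1.36 ± 0.315 and 1.73 ± 0.150 FPKM (log2 fold change 0.39, edgeR adjusted p = 0.126), while Myc fell from 3.71 ± 0.405 to 2.25 ± 0.336 FPKM (−0.68, edgeR adjusted p = 0.0117). Ptgs2os2, known as lincRNA-Cox2 and induced by Toll-like receptor signals in macrophages, had 1.10 ± 0.147 and 1.21 ± 0.321 FPKM, overlapping between the groups. Its neighbour Ptgs2 had 0.824 ± 0.362 and 1.07 ± 0.235 FPKM, also overlapping, and was not tested because its mean was under the level floor. Ftx, an RNA of the X inactivation centre, had 0.949 ± 0.118 and 1.15 ± 0.0548 FPKM (log2 fold change 0.32, edgeR adjusted p = 0.141).

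Levels spanned a wide range. The median lincRNA gene of the 212 had 2.29 FPKM, against 8.38 FPKM for tested coding genes, and 26 had a mean of 10 FPKM or more while 92 were under 2. Their median gene length was 1256 nt (coding genes 4326 nt), so the median of their mean counts was 52.9, against 611 for coding genes. The 12 genes with the highest mean FPKM held 37.8% of the counts of all 212. Of these 12, 7 rose, 1 fell and 4 were not called, where 13.1% and 13.9% of all tested genes rose and fell. Calls were more frequent at higher levels: of the 71 lincRNA genes with the highest mean FPKM 31 rose and 4 fell. Of the 71 with the lowest, 10 rose and 0 fell.

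**Figure D1:**
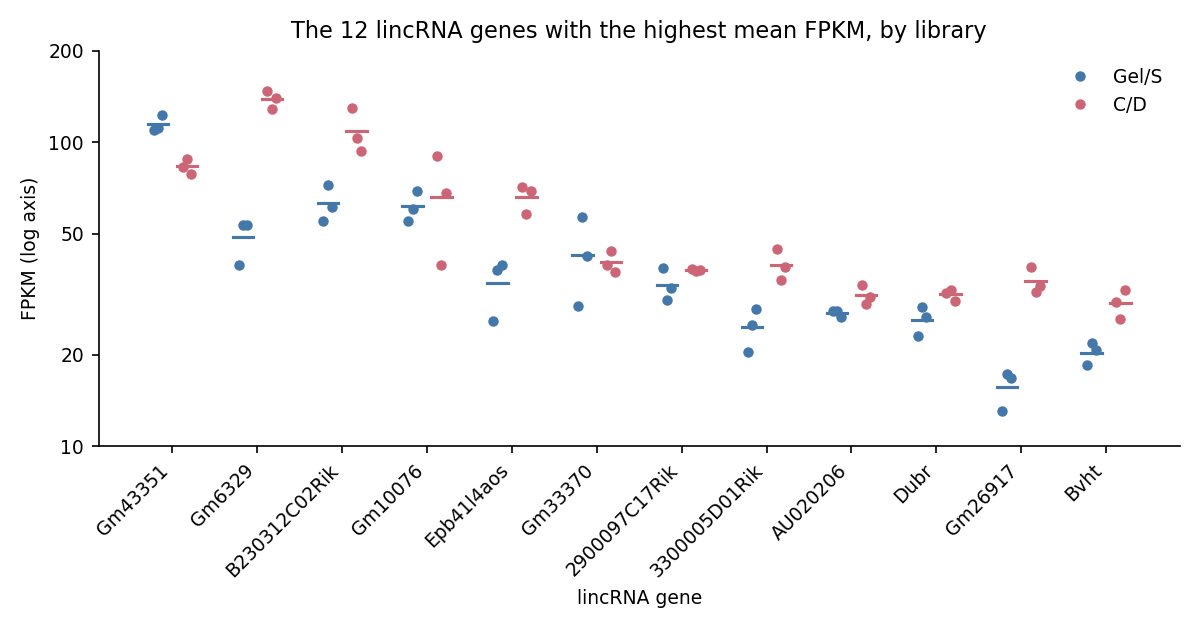
FPKM (log axis) of the 12 lincRNA genes with the highest mean FPKM, with 1 point per library and a line at each group mean. Gm6329 and Gm26917 show the widest gaps between C/D and Gel/S, Gm43351 is lower in C/D, and the groups overlap for Gm10076, Gm33370 and 2900097C17Rik.

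Gm6329 (chr8:45160494-45165219, minus strand, 3 exons) was the most abundant of the risen genes. It stood at 39.5, 53.6 and 53.3 FPKM in Gel/S and at 146.9, 128.9 and 139.5 FPKM in C/D. Each C/D library was more than 2-fold above each Gel/S library (log2 fold change 1.55 with an SE of 0.122, edgeR adjusted p = 4.77e-05). Its nearest coding gene, the melatonin receptor gene Mtnr1a, is 71988 bases away and had no counts in any library. B230312C02Rik (chr2:180370491-180385885, minus strand, 7 exons) rose from 62.9 ± 8.71 to 108.7 ± 18.6 FPKM (log2 fold change 0.83, edgeR adjusted p = 0.00159), with Gata5, its neighbour downstream, at 0. Epb41l4aos, next to the 3′ end of Epb41l4a, rose from 34.5 ± 7.47 to 66.1 ± 7.12 FPKM (0.98, edgeR adjusted p = 0.0017), and Epb41l4a itself had no count in 5 of the 6 libraries. These 3 genes thus rose where the nearest coding gene was silent or nearly so.

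3300005D01Rik (chr17:5798657-5803240, plus strand) rose from 24.6 ± 3.97 to 39.6 ± 4.59 FPKM (log2 fold change 0.72, edgeR adjusted p = 0.00282). Bvht, named Braveheart for its part in heart cell commitment, rose from 20.3 ± 1.72 to 29.6 ± 3.25 FPKM (0.58, edgeR adjusted p = 0.00706). Both were called without each library in turn. Dubr, found as a regulator of Dppa2 in muscle cells, had 26.1 ± 2.79 and 31.7 ± 1.34 FPKM (0.32, edgeR adjusted p = 0.0321). That call was lost without Gel/S 3 or any 1 C/D library (up to 0.119), and with limma on log2(FPKM + 1), log2(FPKM + 0.1) and log2(TPM + 1) (limma adjusted p = 0.0688, 0.0702 and 0.12). The coding gene nearest to Dubr, Ccdc54, is 128140 bases away and had means of 0.0496 and 0.0395 FPKM in Gel/S and C/D.

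Gm26917 (chr17:39843013-39846341, plus strand) rose from 13.0, 17.3 and 16.7 FPKM to 38.8, 32.2 and 33.8 FPKM (log2 fold change 1.19 with an SE of 0.121, edgeR adjusted p = 0.000123). It ends 12 bases before Rn18s-rs5, an 18S ribosomal RNA gene of the RefSeq table (GRCm38.p6), and its GC content is 69.1% where the median of the 211 lincRNA genes with a transcript was 47.6%. Genes with the biotype rRNA held 0.0140%, 0.0120% and 0.0118% of the counts in Gel/S and 0.0214%, 0.0195% and 0.0192% in C/D, and the part of ribosomal RNA in the value of Gm26917 was not tested.

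Among the 12 most abundant genes, AU020206 had 27.5 ± 0.787 and 31.4 ± 2.28 FPKM with no overlap, and just missed the threshold (log2 fold change 0.24, edgeR adjusted p = 0.0564). It passed at a mean FPKM floor of 2 (0.0413). Gm33370 had 42.6 ± 13.9 and 40.4 ± 3.30 FPKM. Gm10076 had 61.5 ± 7.05 and 66.0 ± 25.5 FPKM, and 99.7% of its sequence is shared with Rpl41, a ribosomal protein gene, so its reads may be those of Rpl41.

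Only 4 of the 212 fell, and none by 2-fold. Gm43351 (chr3:130874073-130876824, plus strand), the lincRNA gene with the highest mean FPKM, fell from 110.0, 111.4 and 123.0 FPKM to 83.0, 88.3 and 78.9 FPKM (log2 fold change −0.42, edgeR adjusted p = 0.0102). A230028O05Rik fell from 4.31 ± 0.672 to 2.74 ± 0.522 FPKM (−0.61), Gm26809 from 4.63 ± 0.451 to 3.15 ± 0.648 FPKM (−0.51) and Gm40289 from 4.19 ± 0.529 to 2.98 ± 0.0949 FPKM (−0.45). The exons of Gm26809 overlap others over 28.7% of their length, and 35.9% of its sequence is shared, with Gm20186 as best match. Part of its reads may thus be those of another gene. All 4 fallen genes had no overlap between the groups, and all 4 lost the call without some 1 library. Gm43351 lost it without Gel/S 3 or C/D 3 (edgeR adjusted p up to 0.0577), A230028O05Rik without C/D 1, C/D 2 or Gel/S 2 (0.107), Gm26809 without any 1 library but Gel/S 2 and C/D 3 (0.115), and Gm40289 without any 1 of the 6 (0.14). Their nearest coding genes, Rpl34, Lpp, Lsm8 and Stx18, were not called. These lie 143675, 67061, 1219 and 52672 bases away, so only Lsm8 is close.

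The steepest rises were mostly of genes with few reads. Among called genes without overlap, the 10 highest log2 fold changes belong to Gm43690 (2.01), 1110006O24Rik (1.55), Gm6329, 1110020A21Rik (1.54), Gm11707 (1.53), Gm43661 (1.47), 1700096K18Rik (1.28), Gm42743 (1.27), Gm7160 (1.24) and Gm26917. Apart from Gm6329 and Gm26917, their mean levels were under 2 FPKM. In 6 of the 10 (Gm43690, 1110006O24Rik, 1110020A21Rik, Gm11707, 1700096K18Rik and Gm42743) the Gel/S mean was under 1 FPKM, so they passed the level filter only through C/D and their place in this order is no support for a rise. Gm43690, a single-exon gene 504 bases from the 3′ end of the DNA repair gene Brca2, had 2, 2 and 4 counts in Gel/S and 9, 11 and 10 in C/D. 1110006O24Rik had 12, 8 and 11 counts in Gel/S and 18, 44 and 21 in C/D, so C/D 2 lay well above the other C/D libraries. Gm7160 (chr1:105979350-105990282, minus strand), which starts 124 bases from the start of Zcchc2 on the other strand, rose from 1.17 ± 0.187 to 2.69 ± 0.303 FPKM (edgeR adjusted p = 0.00397).

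Of these 10, Gm6329, Gm26917, Gm43661 and Gm7160 were called without each library in turn. The edgeR adjusted p was not under 0.05 for 1110006O24Rik without C/D 2 (0.0934), for Gm42743 without C/D 1 or C/D 2 (0.0783), for Gm43690 without Gel/S 1 or any 1 C/D library (0.0671), for 1700096K18Rik without any 1 but Gel/S 2 and C/D 1 (0.123), for Gm11707 without any 1 library but Gel/S 2 (0.104) and for 1110020A21Rik without any 1 but Gel/S 3 (0.163), each value being the highest. Of all 65 called genes, 22 stayed called without each library in turn, and all 22 are risen.

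Among better counted genes, 3 were singled out after their values were seen. 4632404H12Rik rose from 5.95, 6.48 and 6.69 FPKM to 12.2, 13.5 and 12.1 FPKM (log2 fold change 1.03, edgeR adjusted p = 6.42e-05). Gm37494, with 16543 nt the longest of the 212, rose from 1.54 ± 0.0448 to 2.71 ± 0.102 FPKM (0.85, edgeR adjusted p = 0.000162). 4632415L05Rik rose from 11.9 ± 1.48 to 20.5 ± 0.250 FPKM (0.83, edgeR adjusted p = 0.000353).

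**Figure D2:**
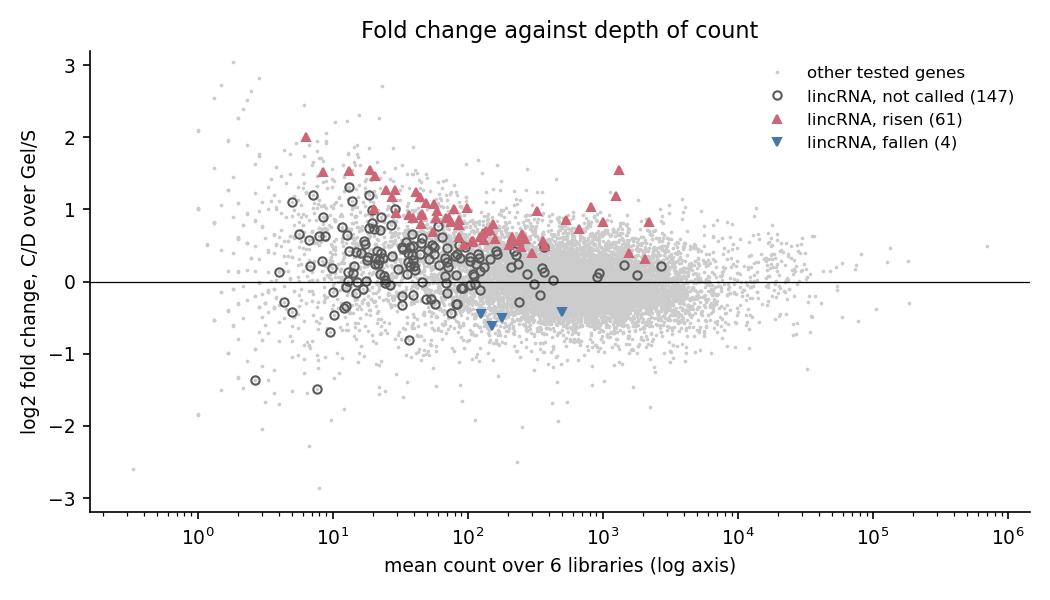
Log2 fold change of C/D over Gel/S against the mean count (log axis) of each tested gene, with lincRNA genes drawn by call and other genes in grey. Most lincRNA genes lie above 0 at every depth of count, and the called ones lie farther from 0 where counts are low (4 genes fall outside the plotted range of ±3.2).

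The median change was alike at every depth of count, while the number of calls rose with depth. Split into 3 parts by mean count, the 71 least counted genes (up to 29.2 counts) had a median log2 fold change of 0.39 with 9 risen and 0 fallen (17 and 1 at an unadjusted p under 0.05 by edgeR). The 9 risen ones include Gm43690, 1110006O24Rik, 1110020A21Rik, Gm11707, 1700096K18Rik and Gm42743, which passed the level filter only through C/D. The 70 genes in the middle by count had a median of 0.42, with 20 risen and 0 fallen (27 and 1 unadjusted). The 71 most counted (91.3 counts or more) had 0.39, with 32 risen and 4 fallen. The median standard error fell from 0.417 to 0.155 between the least and the most counted genes. Across the 212 genes, which share the same 6 libraries, the log2 fold change had a Spearman correlation of −0.01 with the mean FPKM, −0.02 with the mean count, 0.04 with GC content (211 genes) and −0.14 with the distance to the nearest coding gene. By length, the 71 shortest (up to 775 nt) had a median of 0.36, the 70 in the middle 0.50 and the 71 longest (1923 nt or more) 0.35. The 29 genes with 1 exon had a median of 0.55 with 11 risen and 0 fallen (14 and 0 unadjusted). The 178 with more exons had 0.38 with 48 risen and 4 fallen. These shares are 37.9% and 0.0% against 27.0% and 2.2%, where 13.1% and 13.9% of all tested genes rose and fell. Among the risen genes with 1 exon, Gm43690, 1110006O24Rik and 1700096K18Rik passed the level filter only through C/D. The difference between genes with 1 exon and with more was not tested.

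Other classes of long non-coding RNA also rose more often than they fell, and short non-coding RNAs were seldom called. Of 188 antisense genes tested, 35 rose and 4 fell (median log2 fold change 0.38). Of 98 processed transcripts, 26 rose and 1 fell (0.35). Of 28 long RNAs from bidirectional promoters, 14 rose and 0 fell (0.69, with 19 and 0 at an unadjusted p under 0.05 by edgeR). Of 95 entries still to be experimentally checked (biotype TEC), 23 rose and 2 fell (0.40). Of 55 snRNA genes, 0 rose and 4 fell (0.06, with 1 and 4 at an unadjusted p under 0.05 by edgeR). Of 105 snoRNA genes 3 rose and 0 fell (0.15, 9 and 1 unadjusted), and of 101 miRNA genes 6 rose and 0 fell (0.54, 12 and 2 unadjusted). Of 9953 coding genes, 1246 rose and 1562 fell (−0.02), and of 668 processed pseudogenes, 67 rose and 50 fell (0.17). The 9 lincRNA genes left out by name and at 1 FPKM or more had a median of 0.67, with 6 risen and 0 fallen (6 and 0 unadjusted).

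**Figure D3:**
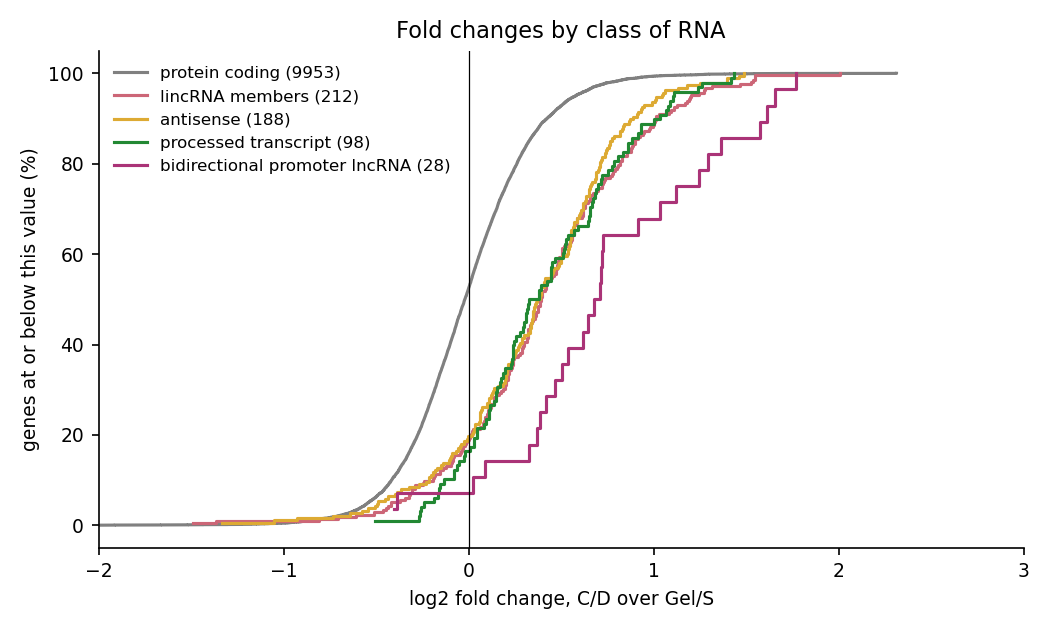
Cumulative share of genes (%) at or below each log2 fold change of C/D over Gel/S, for lincRNA genes and 4 other classes, with the number of genes in the legend. The curves of lincRNA genes, antisense genes and processed transcripts run close together to the right of the coding genes, and that of bidirectional promoter RNAs lies farthest right.

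The share of reads moved with the fold changes. The 212 genes held 0.190%, 0.206% and 0.203% of the counts in Gel/S 1 to 3 and 0.276%, 0.265% and 0.264% in C/D 1 to 3, a ratio of the means of 1.34. The groups did not overlap, and the two-sided exact permutation test gave p = 0.1, the smallest that 3 against 3 libraries allow. lincRNA genes under 1 FPKM, which the filter left out, went from 0.0275 ± 0.00185% to 0.0400 ± 0.00131%, and those left out by name from 0.353 ± 0.0186% to 0.526 ± 0.0344%. Without Gm6329 and Gm26917 the ratio for the 212 was 1.28, and without mitochondrial genes in the total it was 1.38.

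**Figure D4:**
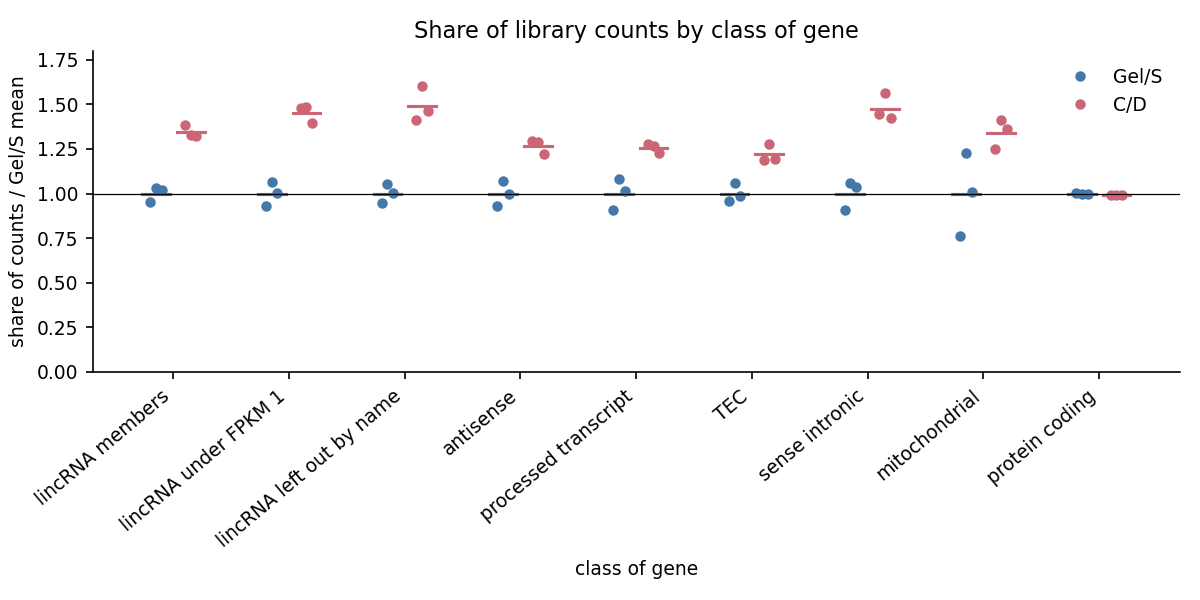
Share of library counts by class of gene, divided by the mean of Gel/S, with 1 point per library and a line at each group mean. All non-coding classes shown and the mitochondrial genes lie higher in C/D, with coding genes close to 1.

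To see what lies around these genes, each was paired with its nearest protein coding gene. Their bodies were a median of 5232 bases apart, 34 overlapped a coding gene, 61 lay head to head with it and 37 were over 50000 bases from any. For 164 the neighbour was tested. Across these pairs the log2 fold changes had a Spearman correlation of 0.02 (coding genes with their nearest coding gene: 0.09 over 6437 pairs). Of 45 risen lincRNA genes with a tested neighbour, the neighbour rose for 9, fell for 9 and was not called for 27, where 13.1% and 13.9% of all tested genes rose and fell. Head to head pairs held 6 of the 9 opposite pairs and 17 of the 45 risen lincRNA genes. Where the starts lay within 1 kb, 11 risen lincRNA genes had 1 risen and 2 fallen neighbours, with 8 not called. Coding genes were paired in the same way, and 808 risen ones had a tested neighbour. That neighbour rose for 130, fell for 103 and was not called for 575. With fallen coding genes included, both genes were called in 510 cases, 298 of them (58.4%) in the same direction. All 18 lincRNA pairs with both called held a risen lincRNA gene. The number of lincRNA pairs with both called fell from 18 to 3, 4 and 5 without C/D 1, C/D 2 and C/D 3, with 2, 3 and 2 in the same direction. Without Gel/S 1, Gel/S 2 and Gel/S 3 it was 13, 28 and 11, with 8, 11 and 6 in the same direction. Over all tested genes 1532 rose and 1631 fell. Without C/D 1, C/D 2 and C/D 3, 910, 928 and 954 rose and 902, 876 and 1006 fell.

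**Figure D5:**
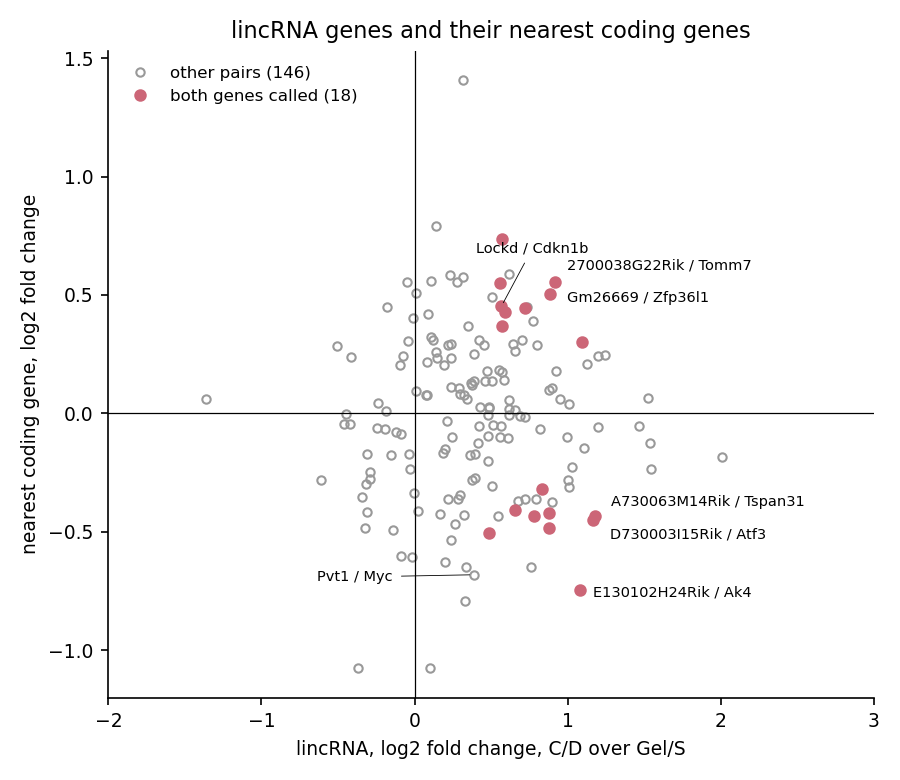
Log2 fold change of each lincRNA gene against that of its nearest coding gene, for the 164 pairs with both tested. The 18 filled points, pairs with both genes called, lie in equal numbers above and below 0 on the axis of the coding gene.

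The pairs named next were chosen after their values were seen. D730003I15Rik (chr1:191224454-191226140, plus strand) rose from 0.668, 1.32 and 1.30 FPKM to 2.42, 2.99 and 1.77 FPKM (log2 fold change 1.17, edgeR adjusted p = 0.0162). Atf3, a stress-induced transcription factor gene that starts 6415 bases away on the other strand, fell from 90.3 ± 11.2 to 64.1 ± 4.28 FPKM (−0.45, edgeR adjusted p = 0.00728). E130102H24Rik rose from 2.67 ± 0.822 to 5.48 ± 0.897 FPKM (1.08), and Ak4, a mitochondrial adenylate kinase gene 62542 bases away, fell from 43.4 ± 4.63 to 25.1 ± 1.58 FPKM (−0.74). A730063M14Rik, 111 bases from Tspan31, rose by 1.18 on the log2 scale, and Tspan31 fell from 27.4 ± 2.12 to 19.7 ± 0.368 FPKM (−0.44). Of these 3 lincRNAs, E130102H24Rik was called without each library. D730003I15Rik did not pass without C/D 1 or without C/D 2 (edgeR adjusted p up to 0.0827) and A730063M14Rik without any 1 but Gel/S 2 (0.122).

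Pairs that rose together included overlapping genes. Gm26669 rose from 1.82 ± 0.314 to 3.25 ± 1.01 FPKM (log2 fold change 0.89) and lies on the opposite strand of Zfp36l1, the gene of a protein that promotes mRNA decay, which rose from 19.3 ± 1.68 to 26.5 ± 1.26 FPKM (0.51). The exons of Gm26669 overlap others over 92.5% of their length, and no source used here says whether counting used strand, so reads of the 2 genes cannot be told apart. Without C/D 3 the edgeR adjusted p of Gm26669 was 0.111. Gm17586, 168 bases from Mafg, a small Maf transcription factor gene, rose from 9.36 ± 1.31 to 13.7 ± 1.71 FPKM (0.59) and Mafg from 30.8 ± 2.12 to 40.3 ± 2.23 FPKM (0.43). Gm17586 did not pass without C/D 1 or without C/D 2 (edgeR adjusted p up to 0.0786).

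Shared sequence touched part of the set. Of the 211 genes with a transcript, 14 had at least 50% of it in stretches of 100 bases or more that match another gene at 98% identity or better, and 166 had none. Of those 166, 47 rose and 3 fell (median log2 fold change 0.41). Gm26581 and Gm10825 are copies of 4479 and 4478 nt at 99.576% identity, so their counts depend on how reads with several matches were treated. Gm26581 rose from 2.50 ± 0.0877 to 3.44 ± 0.116 FPKM (0.50, edgeR adjusted p = 0.00971), while Gm10825 had 4.93 ± 0.184 and 5.48 ± 0.217 FPKM (0.19, edgeR adjusted p = 0.17). Leaving out genes with 50% or more shared sequence or with exons that overlap another gene, 44 of 157 rose and 3 fell.

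Promoters were read from the RefSeq table (GRCm38.p6), from 250 bases before to 50 after the start, where a start within 1000 bases of that in the deposited table was found. This gave 89 of the 212 genes, 25 of them risen. Their median GC content was 54.3%, that of the risen genes 57.7% and that of all 27025 promoters 52.7%. The letters of 6 motifs were searched on both strands. The TATA box, spelled TATAAA, was found in 5.6% of the lincRNA promoters and 14.2% of all promoters, and the CRE, spelled TGACGTCA, in 6.7% and 1.9%. The AP-1 letters TGANTCA were in 12.4% and 7.9%, and the E-box CACGTG in 7.9% and 7.2%. The PU.1 letters GAGGAAGT were in 6.7% and 3.3%, and the NF-kB letters GGANTTTCC in 0 of 89 and in 1.2%. Of the 7 lincRNA promoters with an E-box 5 belong to risen genes, as do 3 of 11 with AP-1, 3 of 6 with PU.1, 1 of 6 with the CRE and 0 of 5 with the TATA box. A match is a description of letters, and it shows no binding.

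The promoters of 3 risen genes are shown because they differ in make-up: 3300005D01Rik holds AP-1, E-box and PU.1 letters, D730003I15Rik holds AP-1 and an E-box with 28 CpG dinucleotides, and Gm6329 holds none of the 6 motifs. Capitals mark the motifs. They lie at chr17:5798407-5798706 (plus strand), chr1:191224204-191224503 (plus strand) and chr8:45165096-45165395 (minus strand).
3300005D01Rik: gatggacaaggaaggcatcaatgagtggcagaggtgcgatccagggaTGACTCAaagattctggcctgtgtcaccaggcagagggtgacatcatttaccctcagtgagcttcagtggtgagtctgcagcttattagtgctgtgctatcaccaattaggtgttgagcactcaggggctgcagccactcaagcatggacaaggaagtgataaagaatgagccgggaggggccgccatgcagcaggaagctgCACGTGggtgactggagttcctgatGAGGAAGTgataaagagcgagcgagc
D730003I15Rik: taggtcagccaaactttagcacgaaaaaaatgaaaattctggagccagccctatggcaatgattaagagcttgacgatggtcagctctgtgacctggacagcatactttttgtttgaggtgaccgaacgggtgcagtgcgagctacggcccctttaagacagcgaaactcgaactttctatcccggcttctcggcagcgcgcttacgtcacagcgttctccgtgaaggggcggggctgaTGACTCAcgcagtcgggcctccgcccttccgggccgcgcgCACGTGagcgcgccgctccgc
Gm6329: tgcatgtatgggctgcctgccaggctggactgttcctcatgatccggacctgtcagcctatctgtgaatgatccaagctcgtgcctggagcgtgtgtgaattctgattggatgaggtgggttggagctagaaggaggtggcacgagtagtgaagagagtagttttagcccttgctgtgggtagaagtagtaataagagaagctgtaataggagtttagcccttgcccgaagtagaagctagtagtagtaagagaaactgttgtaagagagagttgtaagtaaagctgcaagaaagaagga

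The proteins that process or remove such RNAs were looked at as 3 lists. Of 24 tested genes of nuclear RNA decay, Zfc3h1 (of the connection that brings polyadenylated nuclear RNA to the exosome) and Zcchc7 (of the TRAMP complex) rose, Exosc2, an exosome subunit, fell, and 21 were not called (median log2 fold change −0.08). Zfc3h1 had 13.9 ± 1.20 and 16.5 ± 0.885 FPKM (0.29), Zcchc7 5.35 ± 0.324 and 6.33 ± 0.416 FPKM (0.28), and Exosc2 13.9 ± 0.868 and 10.8 ± 0.518 FPKM (−0.32). Of these 3 genes none was called without C/D 1, C/D 2 or C/D 3, and without Gel/S 3 neither risen gene was. Of 18 genes of nonsense-mediated decay, 1 rose and 0 fell (2 and 0 at an unadjusted p under 0.05 by edgeR, median 0.03). That gene is Smg1, the kinase of the pathway, which went from 7.86, 6.88 and 7.67 FPKM to 14.4, 13.9 and 14.1 FPKM (0.96, edgeR adjusted p = 6.42e-05).

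Of 31 genes of the Integrator complex and of mRNA 3′ end processing, 2 rose and 4 fell (median log2 fold change −0.06). Ints11, the endonuclease of Integrator, which also ends the transcription of many non-coding RNAs, fell from 12.2, 9.90 and 11.4 FPKM to 7.07, 6.91 and 6.85 FPKM (−0.64, edgeR adjusted p = 0.00169). Cstf2, a subunit of the cleavage stimulation factor, fell from 5.88 ± 0.964 to 3.71 ± 0.263 FPKM (−0.62), and Ints8 and Clp1 fell by 0.28 and 0.30 on the log2 scale. Pcf11, which ends transcription beyond the polyadenylation site, rose from 9.95 ± 0.935 to 13.0 ± 0.0516 FPKM (0.42), and Fip1l1 rose by 0.36. The count of fallen genes was 2 without Gel/S 3 or any 1 C/D library, and 7 without Gel/S 2. The shares of risen genes in the lists were 8.3%, 5.6% and 6.5% (13.1% of all tested genes), and the shares of fallen genes 4.2%, 0.0% and 12.9% (13.9% of all).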

How the data were processed

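The authors deposited raw counts per gene and library, with no normalization per the file headers. Their FPKM values, also deposited, divide counts by gene length and by a library total within a few percent of the sum of counts. The deposited signal columns are the authors' group means of scaled counts. The authors' log2 fold changes, p-values and adjusted p-values come from a test that no source used here names. The submitters' processing notes name GRCm38 (mm10) as the genome build. The aligner, the counter and the use of strand are likewise unnamed. Columns with the letters US were taken to mean ultrasound, that is C/D, since only C/D received it, and all directions depend on this.

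Symbols with several entries (100) had their counts summed, and 27 symbols that had become dates were restored. Genes with a mean FPKM of at least 1 (11708) were tested with edgeR 4.0.16 (quasi-likelihood, TMM, R 4.3.3) and adjusted by Benjamini-Hochberg over all of them, with a threshold of 0.05. The SE is the size of the log2 fold change divided by the root of F. Alternatives used limma 3.58.1 and DESeq2 1.42.0. Shared sequence was found with blastn 2.17.0 on GENCODE M21 transcripts. Named genes are the 12 of highest mean FPKM, up to 10 steepest called rises and falls without overlap, those on a list of 53 names with a described role, and 3 on either side of the FPKM floor, each with its nearest coding gene. Others were chosen after their values were seen. The genes and lists were chosen with earlier results of these data known. By the adjusted p-values deposited by the authors, 45 of the 212 lincRNA genes were higher and 3 lower in C/D (threshold 0.05), and each of them was also called here in that direction.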

Additional observations from a re-analysis of the deposited data

How the results depend on the processing

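Of 61 risen and 4 fallen lincRNA genes, DESeq2 gave 60 and 3. limma on log2(TPM + 1) gave 32 and 8, and limma on log2(FPKM + 1) 48 and 5. The median log2 fold change of 0.39 was 0.25 with limma on log2(FPKM + 1) and 0.35 with log2(FPKM + 0.1). It was 0.23 with log2(TPM + 1) and 0.20 on quantile-normalized log2(FPKM + 1), a fit added after seeing the data. A pseudocount shrinks changes of low genes by construction, and the TPM and quantile fits also change the scaling. Leaving out 1 library gave 31 to 71 risen and 1 to 3 fallen lincRNA genes, medians of 0.37 to 0.45, and 2 to 11 pairs called in the same direction. The parts of pseudocount and scaling in the medians, and the cause of the other shifts here and below, were not tested. Over all tested genes, 1020, 1008 and 633 rose and 1471, 1492 and 1510 fell with limma on log2(FPKM + 1), log2(FPKM + 0.1) and log2(TPM + 1), against 1532 and 1631 with edgeR.

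Same-numbered libraries did not deviate together (correlations of −0.057, −0.059 and 0.045), so the numbers share nothing known. With the replicate block, 49 lincRNA genes rose and 2 fell, and the lists had 1 risen and 0 fallen (nuclear RNA decay) and 2 fallen (Integrator and 3′ end processing).

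Counts in the lists moved by 1 to 3 genes. For nuclear RNA decay the risen count of 2 was 0 without an FPKM filter and with limma on FPKM + 1, FPKM + 0.1 or TPM + 1, and 1 at a floor of 0.5 and after quantile normalization, and the fallen count was 2 with TPM. For nonsense-mediated decay 2 rose with DESeq2 and at a floor of 2. For Integrator and 3′ end processing 7 fell without an FPKM filter and 0 rose with TPM. Without 1 library the nuclear RNA decay list had 0 to 3 risen and 0 to 2 fallen, nonsense-mediated decay 1 to 3 risen, and Integrator and 3′ end processing 1 to 2 risen and 2 to 7 fallen. All tested genes then had 887 to 1989 risen and 876 to 2089 fallen.

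Of the 22 named lincRNA genes that were called, 14 lost the call under some alternative, 78 times in all (48 without 1 library and 30 in other fits, the latter in 11 genes). Among the named lincRNA genes, 15 of 478 values changed sign, all in genes that were not called. Gm10076 was −0.062 with TPM and ranged from −0.16 to 0.41 without 1 library (lowest without C/D 1). Gm33370 ranged from −0.26 (without Gel/S 1) to 0.23 (without Gel/S 2), with 0.02 without C/D 3, and was 0.0001 with the replicate block and 0.046 after quantile normalization. Ptgs2os2 ranged from −0.0087 (without C/D 3) to 0.38 (without C/D 2) and was −0.059 after quantile normalization. Gm45353, with 1 to 9 counts a library, was −0.084, −0.32, −0.24 and −0.18 in the limma fits (FPKM + 1, FPKM + 0.1, TPM + 1, quantile) and ranged from −1.13 (without C/D 2) to 0.53 (without Gel/S 1), with −0.03 and −0.02 without Gel/S 2 and Gel/S 3. Depth limits the least counted genes: 18 of the 212 had a mean count under 10.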

Other observations

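lincRNA genes below the level filter were also counted. In Gel/S 1 to 3, 845, 907 and 891 lincRNA genes had at least 1 count, and in C/D 1 to 3, 945, 975 and 941 did, although C/D 1 was the smallest library. When all genes with a count were tested without an FPKM floor (edgeR, adjusted by Benjamini-Hochberg over these 23858, threshold 0.05), 37 of the 1190 lincRNA genes under the floor rose and 4 fell, or 3.1% and 0.3%. In that fit 62 of the 212 rose and 5 fell, and 7.3% and 9.4% of all genes did. On chromosome 5 there were 25 of the 212 lincRNA genes, on chromosomes 2 and 17 there were 18 each, and on X and Y 1 each.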
